A study of Gallus gallus with 8 samples.

Results

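The 6 genes described here encode a Wnt ligand (WNT5A), receptors and a receptor partner (FZD10, LGR5) and inhibitors or feedback regulators of the Wnt pathway (APCDD1, DACT1, AXIN2). They were taken by name from 14612 genes that matched the deposited transcript tables. They were selected on their measured levels and fold changes between the groups of these libraries, so their levels and fold changes are given as a description. Where they are set against the call limits used for all genes, this is not a test of them. All 6 matched and all 6 passed the filter on low counts, which kept 9062 genes. Each was measured by 1 transcript, although the gene table lists 4 transcripts for LGR5, 3 for DACT1 and 5 for WNT5A, so reads from other isoforms could be missing from their values.

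RNA was sequenced from distal wing bud mesenchyme of chick embryos, staged after Hamburger and Hamilton (HH) and incubated at 37 °C. There were 3 libraries of wild type HH24 tissue, 3 of wild type HH27 tissue and 2 of grafted tissue, called HH24g. For HH24g, mesoderm from a 150 µm distal strip of HH20 wing buds was freed of its epithelium, set beneath the ridge at the tip of a wild type host wing at HH24 and collected after 24 h, when the donor cells were as old as HH24 tissue and the host wing as old as HH27. The donors carried a CMV-GFP transgene, which is driven by a viral promoter active in most cell types, and their genotype differed from that of both ungrafted groups, so grafting and genotype cannot be told apart. Per the methods of the study, the HH27 tissue came from the opposite wing of the hosts, the HH24 tissue came from other embryos, and each library was a pool of tissue pieces. The study describes 3 replicates per condition and left out 1 HH24 and 1 HH24g library after quality control. Here 3 HH24 and 2 HH24g libraries were given. By that account, 1 of the 3 HH24 libraries used here was dropped by the study. The labels do not say which were left out, so every library given was used. Values with HH24 therefore include the dropped library unless said otherwise. HH24 replicate 2, described next, was the least like the other HH24 libraries.

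The total of estimated reads lay between 1697272 and 5095662 per library. After scaling, HH24 replicate 2 had an effective size of 128271 reads on named genes, against 934614 to 3849969 in the others, and its log2 levels correlated less with the other HH24 libraries (Pearson's r of 0.722 and 0.72 across genes). Levels are given in CPM, read counts scaled to the same effective library size. A single read was worth 7.8 CPM in that library, so several values with HH24, though not all, are also given without it. In a check of the tissue label, all 8 listed wing mesenchyme markers passed the filter. TBX5 lay at 46.8 to 188 CPM and PRRX1 at 172 to 319 CPM. Not all 8 kept the same level across groups. The mean of LHX9 in HH24g was 5.07 times that in HH27, and the mean of HAND2 was 0.351 times. For HH27 over HH24 these ratios were 0.228 and 0.895, and for HH24g over HH24 they were 1.16 and 0.314. Between HH24g and HH27, 2 of the 8 were higher in the grafts and 6 lower. Of these, 1 each way met the call limits. The part of these markers in the contrasts below was not tested. Markers of other cell types were present as well. The 10 matched ectoderm and ridge markers of 12 listed summed to 327 to 448 CPM in HH24, 454 to 569 CPM in HH27 and 389 to 480 CPM in HH24g, and the 6 matched erythroid markers of 10 listed to 2730 to 3320, 303 to 1620 and 548 to 1020 CPM. The 5 matched myogenic markers of 6 listed summed to at most 3.91 CPM in any library, with MYOG at 0 in all 8. No other marker of these lists that matched was at 0 in every library. Values of single libraries are given below in the order of their replicate numbers.

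Wnt proteins are secreted signals that bind Frizzled receptors together with LRP co-receptors. In the canonical branch this binding stops the breakdown of beta-catenin, which then enters the nucleus and works with TCF and LEF factors to turn on target genes, among them several that limit the pathway. Other Wnt proteins act without beta-catenin and orient cells or their movement. In the limb bud, Wnt signals from the ectoderm help to keep the underlying mesenchyme growing and undifferentiated, while WNT5A in the distal mesenchyme is needed for outgrowth and elongation in the mouse.

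The 6 genes formed 3 patterns. FZD10, APCDD1, WNT5A and AXIN2 were lower in the grafts than in HH27 and, on average, also lower than in HH24. LGR5 was about 7-fold higher in HH27 than in HH24, and the grafts lay between both. DACT1 went the other way and was 5.01-fold higher in the grafts than in HH27. In each gene both graft libraries lay outside the range of the 3 HH27 libraries. That is 6 of 6 genes, where 32.7% of all genes tested had groups that did not overlap (16.3% with the grafts higher and 16.4% with the grafts lower). The 6 genes were selected on such differences, so nothing is read from this count or from like counts of the 6 genes below.

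**Figure D1:**
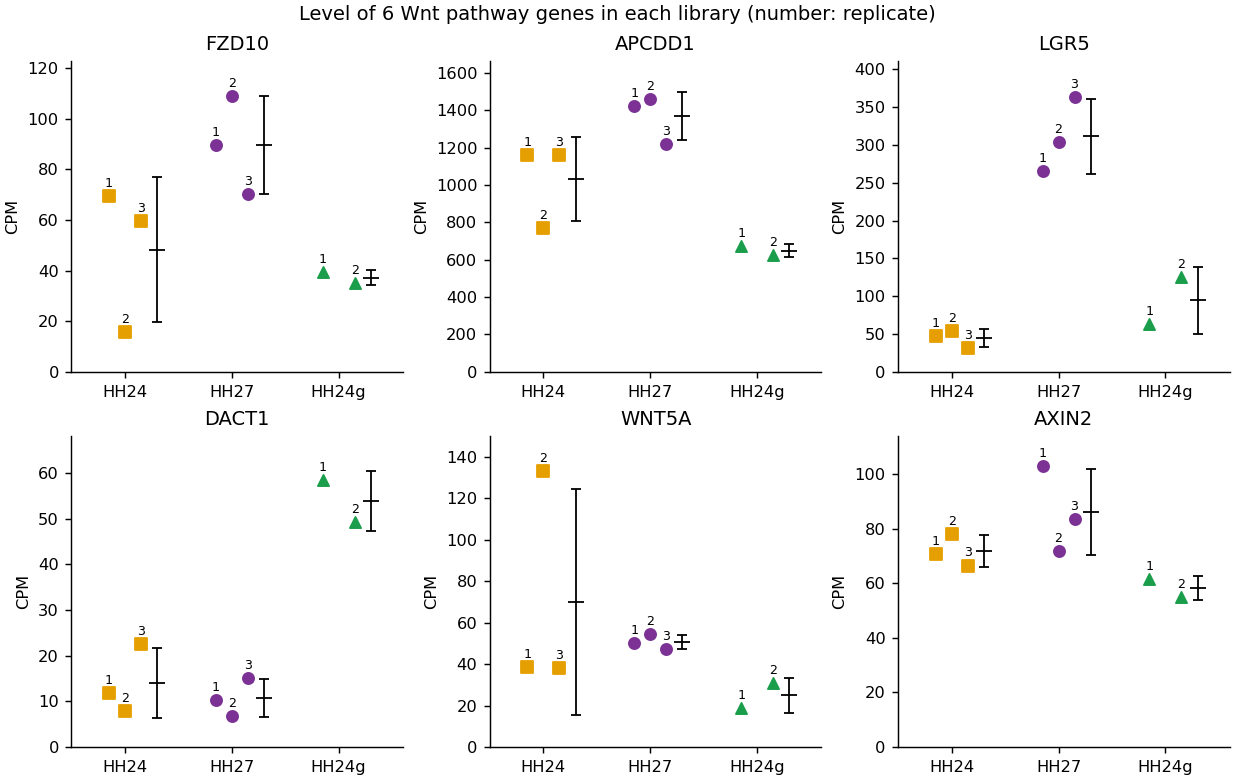
Level of each of the 6 genes in CPM (linear axis from 0, a separate scale per gene) in the 3 HH24, 3 HH27 and 2 HH24g libraries; points are libraries with their replicate number, and the black bar is the mean ± SD. The graft libraries lie below every HH27 library for FZD10, APCDD1, LGR5, WNT5A and AXIN2 and above every HH27 library for DACT1 (58.4 and 49.2 CPM against 6.8 to 15.1 CPM).

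WNT5A is a ligand that mainly signals without beta-catenin. It measured 38.5, 133 and 38.1 CPM in HH24 replicates 1 to 3, 50.2, 54.4 and 47.3 CPM in HH27 replicates 1 to 3, and 19 and 30.9 CPM in HH24g replicates 1 and 2. The value of 133 CPM in HH24 replicate 2 stood for 17 reads and lay far above all other libraries, while the grafts were lowest and did not overlap with either ungrafted group. The mean level was 50.6 ± 3.57 CPM in HH27 (SD, n = 3) and 24.9 ± 8.41 CPM in HH24g (n = 2), a ratio of 2.03. In HH24 it was 69.7 ± 54.4 CPM (n = 3), or 38.3 CPM without replicate 2. The fitted log2 fold change of WNT5A was -0.95 ± 0.24 (SE) for HH24g against HH27 and -0.68 ± 0.29 for HH24g against HH24. For HH27 against HH24 it was 0.27 ± 0.25, and this sign was not stable. It turned to -0.05 with edgeR and -0.23 with DESeq2, and was 0.35 without HH24 replicate 2.

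Set against the other ligands on a scale per transcript length, in RPKM (CPM per kilobase of effective length), WNT5A was among the highest of the 17 matched Wnt genes in every group. It had 36.2 ± 2.4 RPKM in HH27 and 17.9 ± 6.09 RPKM in HH24g, in both groups next after WNT6, a Wnt of the limb ectoderm, at 40.8 ± 5.01 and 30.7 ± 4.54 RPKM. In HH27 these neighbours did not differ beyond their spread. In HH24 WNT5A ranked first at 49.5 ± 37.9 RPKM, but without replicate 2 its mean was 27.7 RPKM, under the 37.6 ± 1.51 RPKM of WNT6. WNT6 was itself one of the ectoderm markers.

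FZD10 encodes a Frizzled receptor. It measured 69.5, 15.6 and 59.7 CPM in HH24 replicates 1 to 3, 89.7, 109 and 70.1 CPM in HH27 replicates 1 to 3, and 39.4 and 35.1 CPM in HH24g replicates 1 and 2. All 3 HH27 libraries were above all HH24 libraries, but HH27 replicate 3 and HH24 replicate 1 were nearly level (70.1 and 69.5 CPM). A single read was worth 1.07 CPM in HH24 replicate 1. The grafts were below HH27 and below HH24 replicates 1 and 3. HH24 replicate 2 lay under the grafts, but on 2 reads. The mean was 48.3 ± 28.7 CPM in HH24 (64.6 CPM without replicate 2), 89.5 ± 19.3 CPM in HH27 and 37.3 ± 3.04 CPM in HH24g, so HH27 was 2.4-fold above the grafts. The log2 fold change of FZD10 was -1.18 ± 0.21 for HH24g against HH27, -0.73 ± 0.31 for HH24g against HH24 and 0.45 ± 0.28 for HH27 against HH24. Without HH24 replicate 2 the contrasts with HH24 gave -0.80 and 0.36.

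The place of FZD10 among the 10 Frizzled genes differed between groups. Per length it was second in HH27 at 42.8 ± 9.31 RPKM, within its spread of FZD4 at 46.7 ± 5.31 RPKM and above FZD7 at 26.8 ± 4.25 RPKM. In HH24g it was sixth at 17.9 ± 1.48 RPKM, below FZD4 (40.8 ± 1.27 RPKM), FZD7 (34 ± 7.84 RPKM), FZD2, FZD1 and FZD6, and within its spread of FZD6 at 19.4 ± 1.26 RPKM. In HH24 it ranked 3 at 22.7 ± 14.3 RPKM with all libraries and had 30.9 RPKM without replicate 2. FZD5 and FZD8 did not pass the filter, and of the 7 other Frizzled genes tested none was called in any contrast. FZD4 had a log2 fold change of -0.19 ± 0.12 between HH24g and HH27 (adjusted p 0.457, limma voom) and FZD7 one of 0.25 ± 0.17 (adjusted p 0.526). FZD1 (0.21) and FZD2 (0.13) were also above 0. A lower level in the grafts was not particular to FZD10. FZD9 had a mean of 8.46 CPM in HH24g against 16.9 CPM in HH27 (log2 fold change -0.88 ± 0.31, adjusted p 0.191). For FZD9 both grafts lay below every ungrafted library, which was not so for FZD10.

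**Figure D2:**
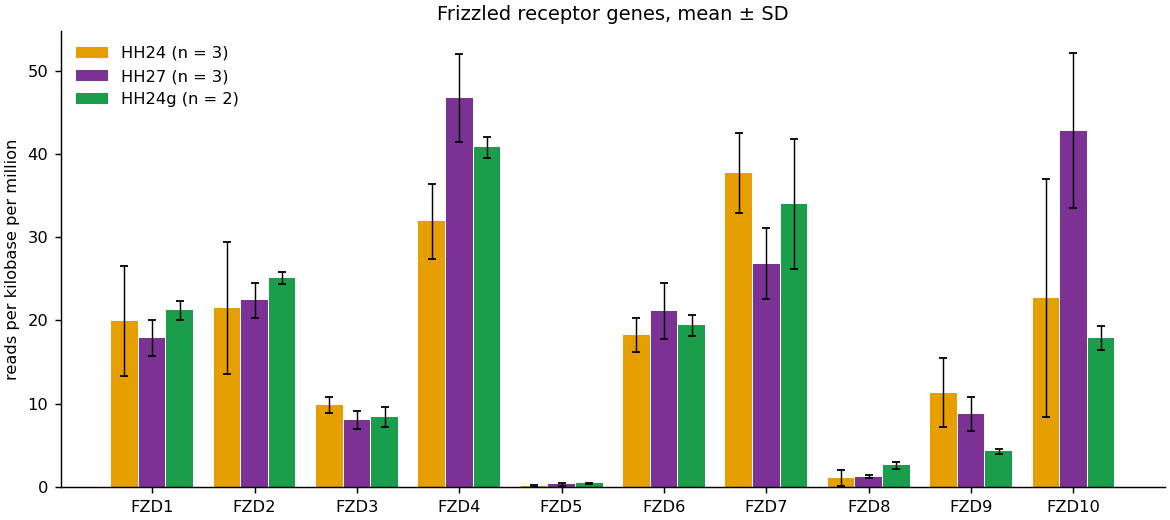
Mean level of the 10 Frizzled genes in RPKM (linear axis from 0) in HH24 (n = 3), HH27 (n = 3) and HH24g (n = 2); error bars are the SD over libraries. FZD10 stands at 42.8 RPKM in HH27 and at 17.9 RPKM in HH24g, and its wide bar in HH24 includes replicate 2 with 2 reads.

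LGR5 encodes a receptor for R-spondins, secreted proteins that raise Wnt signalling by removing the ubiquitin ligases ZNRF3 and RNF43 from the cell surface. LGR5 is itself a common target of beta-catenin. Its level was 47.1, 54.6 and 31.3 CPM in HH24 replicates 1 to 3, 266, 304 and 364 CPM in HH27 replicates 1 to 3, and 63.4 and 126 CPM in HH24g replicates 1 and 2. The value of HH24 replicate 2 stood for 7 reads. The 3 groups did not overlap, with HH24 lowest, the grafts between and HH27 highest, and the graft libraries differed more from each other than the lower of them did from HH24. The mean was 44.3 ± 11.9 CPM in HH24 (39.2 CPM without replicate 2), 312 ± 49.5 CPM in HH27 and 94.9 ± 44.6 CPM in HH24g. HH27 was thus 7.03-fold above HH24 and 3.28-fold above HH24g. The log2 fold change of LGR5 was 3.00 ± 0.42 for HH27 against HH24 (3.03 without HH24 replicate 2), -1.74 ± 0.26 for HH24g against HH27 and 1.26 ± 0.45 for HH24g against HH24. The last was 1.31 without HH24 replicate 2. On the scale of log2 CPM, the graft mean lay at a share of 0.368 of the distance between HH24 and HH27, or 0.403 without HH24 replicate 2. This share averages 2 graft libraries that lay far apart (63.4 and 126 CPM) and does not measure progress in time.

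LGR5 was also set against the related receptor LGR4. The ratio of LGR5 to LGR4 per length was 0.308, 0.43 and 0.233 for the HH24 libraries, 1.68, 1.53 and 2.08 for HH27, and 0.332 and 0.667 for HH24g. LGR5 was therefore under LGR4 in all HH24 and graft libraries and over it in all HH27 libraries. LGR4 itself was not called, with log2 fold changes of 0.29 ± 0.13 for HH27 against HH24 (adjusted p 0.322, limma voom) and 0.13 ± 0.10 for HH24g against HH27 (adjusted p 0.58). LGR6 was low, at up to 15.6 CPM in a library (2 reads in HH24 replicate 2). It had 9 and 0 reads in HH24g replicates 1 and 2. Its log2 fold change of -3.39 ± 1.88 in HH24g against HH27 was not called (adjusted p 0.413).

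APCDD1 encodes a membrane protein that binds Wnt and LRP proteins and holds the pathway back at the cell surface. It had the highest level of the 6 genes in each group, at 177 ± 38.9 RPKM in HH24, 235 ± 21.8 RPKM in HH27 and 112 ± 6.14 RPKM in HH24g. Its values were 1160, 772 and 1160 CPM for HH24, 1420, 1460 and 1220 CPM for HH27, and 674 and 623 CPM for HH24g. The groups did not overlap, with the grafts lowest and HH27 highest, although HH24 replicate 2 lay closer to the grafts than to the other HH24 libraries. HH27 was 2.11-fold above the grafts. The log2 fold change of APCDD1 was -1.06 ± 0.12 for HH24g against HH27, -0.76 ± 0.14 for HH24g against HH24 (-0.84 without HH24 replicate 2) and 0.30 ± 0.12 for HH27 against HH24. The last was 0.20 without HH24 replicate 2. With 99 to 4706 reads per library APCDD1 was the best covered of the 6 genes.

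AXIN2 encodes a scaffold of the complex that breaks down beta-catenin and is widely used as a readout of canonical signalling, since beta-catenin turns it on. It measured 70.6, 78 and 66.5 CPM in HH24 replicates 1 to 3, 103, 71.9 and 83.4 CPM in HH27 replicates 1 to 3, and 61.4 and 55 CPM in HH24g replicates 1 and 2. The grafts were below all ungrafted libraries, while HH24 and HH27 overlapped. AXIN2 differed least between HH24g and HH27 of the 6 genes, with a ratio of HH27 to HH24g of 1.48 and a log2 fold change of -0.60 ± 0.15. It was -0.27 ± 0.19 for HH24g against HH24 (-0.25 without HH24 replicate 2) and 0.33 ± 0.17 for HH27 against HH24. The ratio of AXIN2 to AXIN1, the scaffold that is made without this feedback, was 1.43, 1.88 and 1.91 in HH24, 2.61, 2.44 and 2.15 in HH27 and 1.56 and 1.59 in HH24g. It was higher in every HH27 library than in any other.

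DACT1 encodes a protein that binds Dishevelled, the first cytoplasmic relay of the pathway, and is known in vertebrates as a modulator of Wnt signalling. It was low in ungrafted tissue, at 11.8, 7.8 and 22.5 CPM in HH24 replicates 1 to 3 and 10.3, 6.8 and 15.1 CPM in HH27 replicates 1 to 3. The HH24g replicates 1 and 2 had 58.4 and 49.2 CPM, above every other library, while HH24 and HH27 overlapped. These values stood for 117 and 161 reads in the grafts, against 11, 1 and 23 reads in HH24 and 27, 7 and 58 reads in HH27. The mean was 14 ± 7.6 CPM in HH24 (17.1 CPM without replicate 2), 10.7 ± 4.15 CPM in HH27 and 53.8 ± 6.51 CPM in HH24g. DACT1 had a log2 fold change of 2.12 ± 0.25 for HH24g against HH27, 1.66 ± 0.37 for HH24g against HH24 (1.63 without HH24 replicate 2) and -0.47 ± 0.41 for HH27 against HH24.

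Its paralog DACT2 remained the more abundant of the pair per length. The ratio of DACT1 to DACT2 was 0.136, 0.062 and 0.273 in HH24, 0.0916, 0.0755 and 0.0745 in HH27 and 0.343 and 0.23 in HH24g. The grafts were above HH27 but overlapped with HH24. DACT2 was not called, at 0.48 ± 0.26 on the log2 scale for HH24g against HH27 (adjusted p 0.401, limma voom) and 1.16 ± 0.35 for HH24g against HH24 (adjusted p 0.262). The summed endothelial and leukocyte markers were also highest in the graft libraries. The 7 endothelial markers (7 of 7 matched) summed to 128 to 203 CPM in HH24, 149 to 178 CPM in HH27 and 215 to 227 CPM in HH24g, and the 4 matched leukocyte markers of 5 listed to 36.2 to 40.7, 31.1 to 35.6 and 46.7 to 47.9 CPM. No marker of either list was at 0 in all libraries and none was called in any contrast. By gene, 5 of the 6 endothelial markers tested had a log2 fold change above 0 in HH24g against HH27, PECAM1 being the exception, as did all 3 leukocyte markers tested, while SPI1 was at 0 in both grafts. Their part in the level of DACT1 was not tested, and in bulk tissue more cells of a type and more RNA per cell cannot be told apart.

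**Figure D3:**
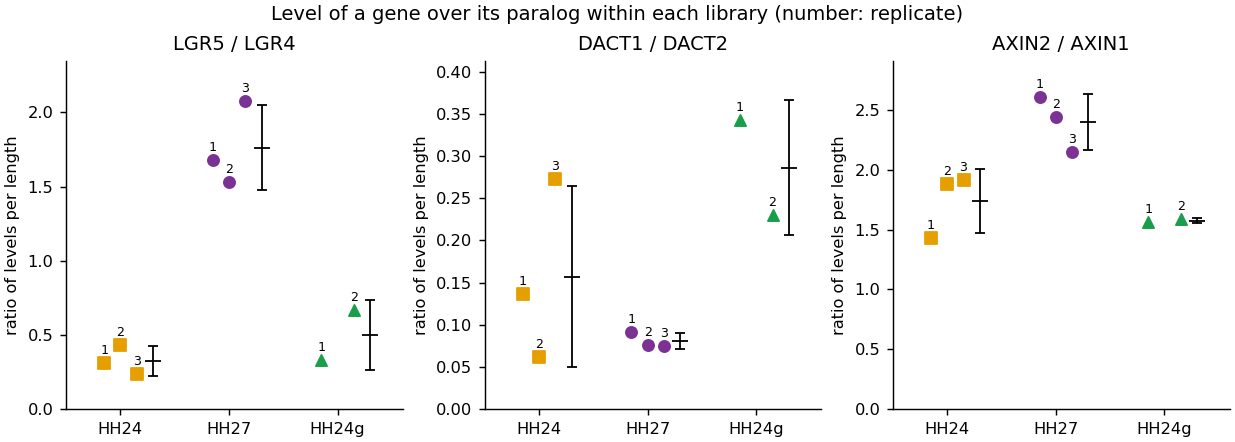
Ratio of the level per length of LGR5 to LGR4, DACT1 to DACT2 and AXIN2 to AXIN1 within each library (linear axes from 0); points are libraries with their replicate number, and the black bar is the mean ± SD. LGR5 exceeds LGR4 only in the 3 HH27 libraries (1.53 to 2.08), and AXIN2 to AXIN1 is highest there (2.15 to 2.61).

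Side by side, the contrasts can be read against the call used for all genes, which asked for a Benjamini-Hochberg adjusted p-value under 0.05 in limma voom and an absolute log2 fold change over 1. Between HH24g and HH27, FZD10, APCDD1 and LGR5 met both limits as lower in the grafts and DACT1 as higher. Over all genes tested, 1.71% met them, 0.695% as lower and 1.02% as higher. The 6 genes were selected on this contrast, so nothing is read from their count. WNT5A and AXIN2 met neither limit. The settings are compared below only to show how far each value depends on them. LGR5 and DACT1 met both limits in all 16 alternative fits in which they were tested, with log2 fold changes of -2.30 to -1.31 and 1.98 to 2.61. APCDD1 sat on the fold limit and was lost without HH24g replicate 2 (-0.99). FZD10 was less firm and met both limits in 9 of 16 alternatives. Leaving out HH27 replicate 1 (-1.13), HH24g replicate 1 (-1.25) or HH24g replicate 2 (-1.08) ended its call. So did edgeR (-1.25), no filter on low counts (-1.18), unmatched transcripts kept (-1.15) and only the groups compared (-1.16). The summed ectoderm and ridge markers overlapped between these groups, but 6 of the 7 tested had a log2 fold change below 0 in the grafts (median -0.27). FGF8, the signal of the ridge, had 4.99 and 5.19 CPM in HH24g, under the 8.74 to 15.3 CPM in HH27. The summed cartilage markers (5 of 5 matched, none at 0 in every library) were lower in the grafts, at 25 and 25.4 CPM against 30.3 to 51.2 CPM in HH27. By gene, 2 were tested and went opposite ways. SOX9 was lower in the grafts and called (log2 fold change -2.23), while COL2A1 was slightly higher (0.095). The sum of HH27 replicate 3 also held 6.75 CPM of ACAN, which was at 0 in every other library. The part of these marker lists in these differences was not tested.

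Between HH27 and HH24, LGR5 was the single gene of the 6 to meet both limits, where 1.07% of all genes tested did (0.463% as higher and 0.607% as lower in HH27). It met them in 13 of 16 alternatives and not without HH24 replicate 1 (3.22), without HH24 replicate 3 (2.68) or with unmatched transcripts kept (3.01). FZD10 (by a near tie), APCDD1 and LGR5 were higher in all HH27 than in all HH24 libraries. Of all genes, 23.6% had groups that did not overlap (13.7% higher and 9.94% lower in HH27). The summed erythroid markers, which were highest in HH24, moved with this contrast. By gene, 3 of the 4 tested were lower in HH27, and HBBA had a log2 fold change of 0.53. The part of these markers in the contrast was not tested. The labels name no batch.

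Between HH24g and HH24 none of the 6 genes met both limits, where 0.011% of all genes tested (1 gene) did. The groups did not overlap for APCDD1, WNT5A and AXIN2, which were lower in the grafts, or for LGR5 and DACT1, which were higher. Over all genes 27.1% did not overlap (16.2% higher and 10.9% lower in the grafts). DESeq2 placed LGR5 and DACT1 past both limits here, and edgeR did not. The summed erythroid markers were lower in HH24g (548 to 1020 CPM) than in HH24 (2730 to 3320 CPM). By gene, 3 of the 4 tested were lower in the grafts. The other, HBBA, had a log2 fold change above 0, with 16 and 53.5 CPM in HH24g against 0, 46.8 (6 reads) and 3.91 CPM in HH24. All 6 endothelial markers tested had a log2 fold change above 0 (median 0.76). The part of these marker lists in this contrast was not tested.

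**Figure D4:**
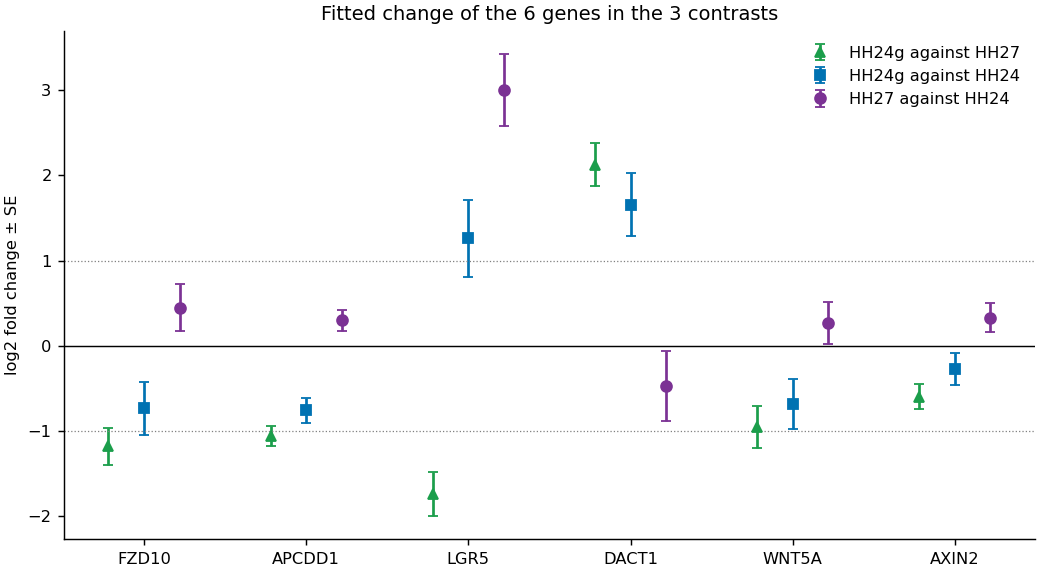
Fitted log2 fold change ± SE of the 6 genes in the 3 contrasts from 1 limma voom model of all 8 libraries; dotted lines mark the fold limit of 1 on the log2 scale. DACT1 is above 0 in both contrasts of HH24g (2.12 and 1.66), LGR5 is below 0 against HH27 and above 0 against HH24 (-1.74 and 1.26), and the other 4 genes are below 0 in both.

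The median log2 fold change between HH24g and HH27 was -1.003 for the 6 genes, which their selection on these values sets, -0.13 for the 70 other Wnt pathway genes tested and -0.01 for all genes. For HH24g against HH24 these medians were -0.47, -0.12 and 0.02, and for HH27 against HH24 they were 0.31, 0.01 and 0.03. The grafts lay below all 6 ungrafted libraries for APCDD1, WNT5A and AXIN2, and above all of them for DACT1. Of all genes tested, 3.26% were below and 5.62% above. Without HH24 replicate 2, FZD10 joined the genes that were below, where the shares of all genes were 5.72% below and 7.49% above.

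Per length, the 6 genes were spread over a wide range in ungrafted tissue and drew together in the grafts, apart from APCDD1. In HH27 the order was APCDD1, LGR5 (56.2 ± 8.95 RPKM), FZD10, WNT5A, AXIN2 (32.6 ± 5.92 RPKM) and DACT1 (4.1 ± 1.55 RPKM), and FZD10, WNT5A and AXIN2 did not differ beyond their spread. In HH24g AXIN2 (22.1 ± 1.69 RPKM), DACT1 (20.4 ± 2.48 RPKM), WNT5A, FZD10 and LGR5 (17.1 ± 8.08 RPKM) followed each other closely, and no neighbours among these 5 differed beyond their spread. In HH24 LGR5 (7.99 ± 2.14 RPKM) and DACT1 (5.07 ± 3.41 RPKM) were the lowest.

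As a description over the 8 libraries, which fall into 3 groups and share their depth and scaling, the log2 levels of FZD10 and APCDD1 had a Pearson's r of 0.82, and 0.97 without HH24 replicate 2. DACT1 was negatively related to each of the other 5 genes, from -0.26 with FZD10 to -0.80 with WNT5A. That with FZD10 rested on HH24 replicate 2 and was -0.98 without it. LGR5 was more weakly related to FZD10 (0.51) and APCDD1 (0.43). The correlation of FZD10 with WNT5A changed sign, from -0.32 over all libraries to 0.87 without HH24 replicate 2. The genes described here were selected on their levels and fold changes between these groups, so correlations among them in part restate that selection. Among 7659 genes, those most like LGR5 were IRS2 (0.984), EIF3L (0.977) and PTPN14 (0.97), and those most like DACT1 were MCTP2 (0.972), ARL6IP5 (0.963) and CYYR1 (0.961). For FZD10 they were ATVR1 (0.977), PABIR2 (0.973) and HIST1H111L (0.97), for APCDD1 HIST1H103 (0.97), ZFP511 (0.956) and TNFRSF14 (0.954), for WNT5A CCNT1 (0.976), STK11 (0.975) and INCENP (0.972), and for AXIN2 SNAPC4 (0.945), KLHL25 (0.906) and MAPK8IP3 (0.892). Values this high are partly a product of picking the best of so many genes over few libraries.

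The wider pathway was read from lists of 125 genes, of which 102 matched and 76 were tested, 70 of them besides the 6 genes above. Between HH24g and HH27, WNT11 and TBXT were called, both lower in the grafts, which is 2.86% of the 70 where 1.71% of all genes were called. TBXT, the T-box factor brachyury and a common target of beta-catenin, measured 33, 41.8 and 41.8 CPM in HH27 and 8.98 and 10.7 CPM in HH24g (log2 fold change -1.92 ± 0.24, adjusted p 0.00372, limma voom). The HH24 libraries had 15, 31.2 (4 reads) and 15.6 CPM, above the grafts and below HH27. WNT11, a ligand that mainly acts without beta-catenin, measured 28, 25.2 and 23.1 CPM in HH27, 23.5, 15.6 and 23.5 CPM in HH24 and 8.98 and 12.5 CPM in HH24g (-1.17 ± 0.21, adjusted p 0.0214). Its value in HH24 replicate 2 stood for 2 reads. WNT11 was called in 7 of 16 alternatives, and TBXT in 15 of 16, not without HH24g replicate 2 (-2.06, adjusted p 0.0575; range of adjusted p over its alternatives 5.29e-06 to 0.0575). Of the 70 genes, 6 (8.57%) were below all 6 ungrafted libraries in both grafts (WNT11, TBXT, WLS, FZD9, KREMEN1 and TCF7) and 3 (4.29%) above (LRP6, FRZB and SHISA2), where the shares of all genes were 3.26% and 5.62%.

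Besides WNT5A, all 6 tested genes of the ligand list had a log2 fold change below 0 in HH24g against HH27 (median -0.37), and 1 of them, WNT11, passed the test. The 6 include WLS, which is not itself a Wnt gene, and WNT6 and WNT7A, which are also counted among the ectoderm and ridge markers. Ligands that did not pass the filter went both ways. WNT3 had a mean of 3.98 CPM in HH24g (8 and 13 reads) against 1.81 CPM in HH27, and WNT7B 3.39 against 4.8 CPM. The part of the ectoderm in these ligand values was not tested. In the list of targets, without APCDD1, LGR5 and AXIN2, 6 of 9 were below 0 (median -0.57), and 1, TBXT, passed. Of the receptors other than FZD10, 8 of 14 were below 0 (median -0.02) and 0 passed both limits. Of all genes tested, 51.8% were below 0. Under the fold limit, but with an adjusted p under 0.05, SHISA2 (0.90 ± 0.17, adjusted p 0.0266) and LRP4 (0.63 ± 0.13, adjusted p 0.032) were higher in the grafts, while KREMEN1 (-0.66 ± 0.12, adjusted p 0.0191), CCND1 (-0.57 ± 0.08, adjusted p 0.00692) and SFRP1 (-0.52 ± 0.11, adjusted p 0.0494) were lower. KREMEN1 is a receptor of Dickkopf inhibitors, and SHISA2 belongs to a family that retains Frizzled receptors inside the cell.

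CCND1 and SFRP1 followed the order of LGR5. LEF1 and SFRP2 also lay in this order but were not called in any contrast. LEF1 measured 24.6, 0 and 25.4 CPM in HH24, 57.5, 62.2 and 60.8 CPM in HH27 and 50.9 and 31.8 CPM in HH24g. CCND1, the cell cycle regulator cyclin D1, measured 165, 164 and 188 CPM in HH24, 430, 459 and 406 CPM in HH27 and 281 and 291 CPM in HH24g. SFRP1, a secreted Wnt antagonist, measured 43.9, 23.4 (3 reads) and 47.9, 93.9, 98.1 and 111, and 69.4 and 72.7 CPM. CCND1 and SFRP1 were the other pathway genes called between HH27 and HH24, both higher in HH27 (1.28 ± 0.10, adjusted p 0.00246, and 1.17 ± 0.18, adjusted p 0.0185, limma voom). SFRP1 was not called without HH24 replicate 1 or 3. Between HH24g and HH24 none of the 70 was called by limma voom, with 14 (20%) at an unadjusted p under 0.05, a share that was 11.3% over all genes. Of all 76 pathway genes edgeR called 0 and DESeq2 called 5 in that contrast, and the 5 include the selected genes LGR5 and DACT1. Over all 9062 genes tested, edgeR called 14 and DESeq2 called 120 there.

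**Figure D5:**
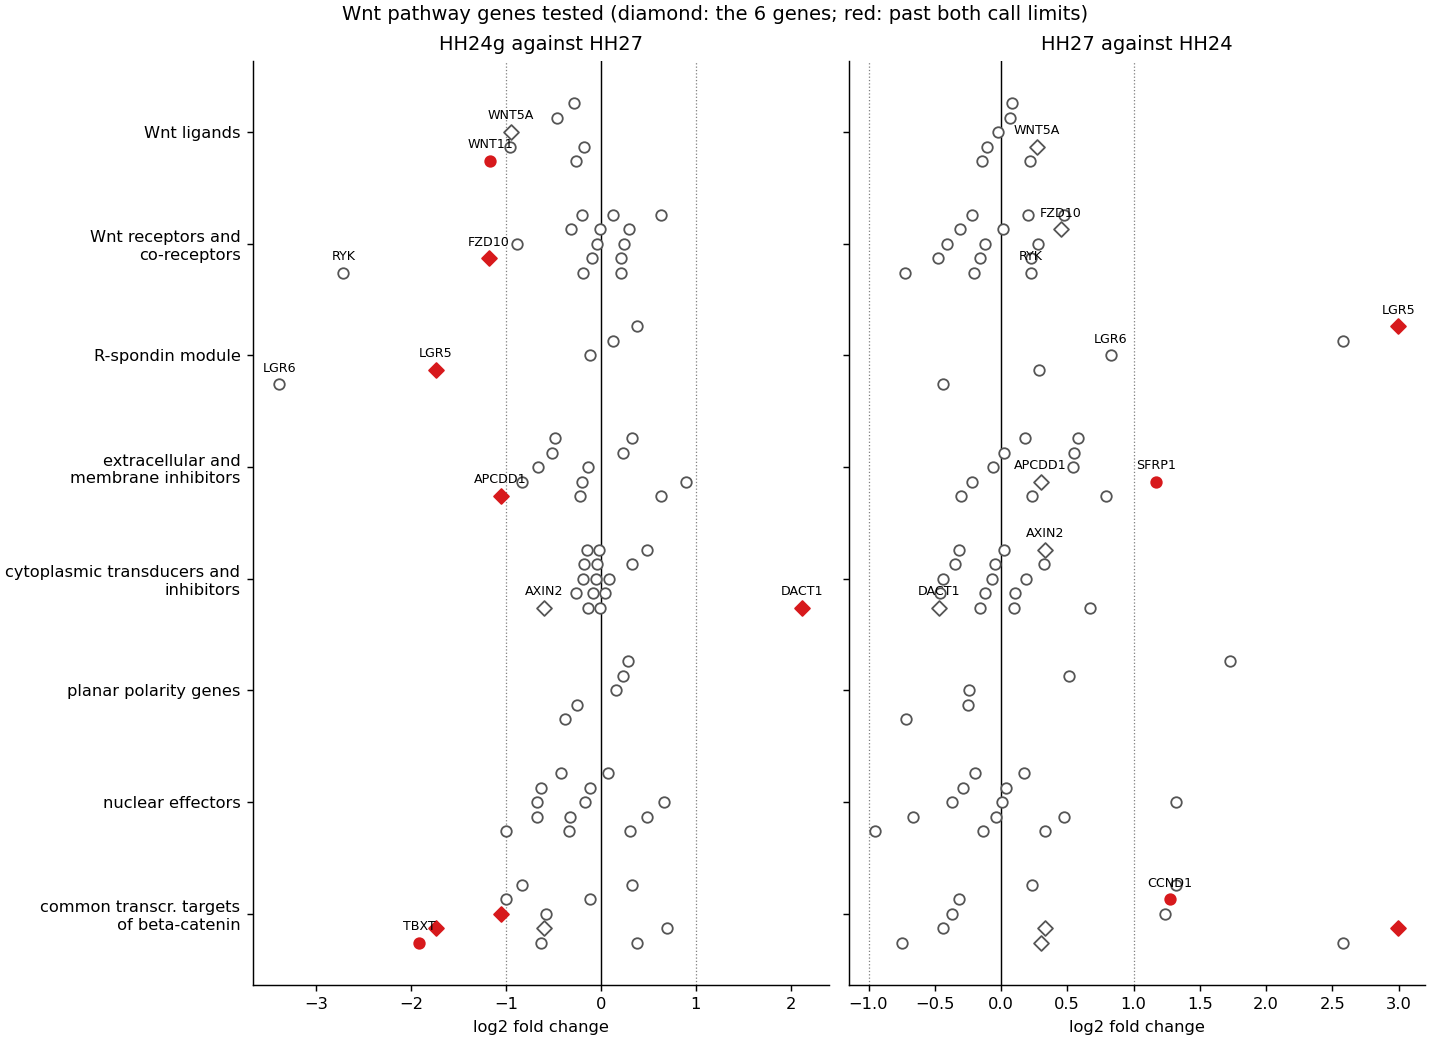
Log2 fold change of the 76 Wnt pathway genes tested, by list, for HH24g against HH27 (left) and HH27 against HH24 (right); a gene in more than 1 list is drawn in each, vertical position within a list has no meaning, diamonds are the 6 genes and red marks genes past both limits. All tested genes of the ligand list, which includes WLS besides Wnt genes, lie left of 0 in the left panel. RYK (-2.71) and LGR6 (-3.39) lie far left there without being called, each with a graft library at 0 reads. The other graft library had 37.3 CPM of RYK, within the 33 to 60.5 CPM of HH27, and 4.49 CPM of LGR6 (9 reads).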

How the data were processed

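Chick wing bud RNA was depleted of ribosomal RNA, made into stranded libraries and sequenced by the authors. For each library the authors deposited estimated counts and TPM per RefSeq transcript. TPM keep no depth and were not tested. The submitters' processing notes name HISAT2 2.0.2, Salmon, limma and the build galGal4. Which of them made these values is not given in the sources used here.

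Of 57399 transcripts, 26660 (46.4%) matched a gene symbol by accession in a RefSeq table of the assembly GRCg7b, used for names only. Transcripts without a match were left out, and 9.24% of the reads of HH24 replicate 2 and 45.5% to 67.6% of the others matched. Estimated counts were summed per gene, rounded, filtered (filterByExpr, minimum count 10, minimum total 15), scaled by TMM and fitted with limma 3.58.1 voom under R 4.3.3 in 1 model of all 8 libraries, with 1 mean per group. Adjusted p-values were computed over 9062 genes. CPM are counts over effective library size, and RPKM also divide by effective transcript length. Correlations used log2 CPM with a prior count of 2. Groups came from the sample titles, which do not say whether replicates were separate embryos. The methods of the study describe replicate experiments with several tissue samples in each. The p-values measure the spread between these libraries. Replicate pairs differed beyond sampling noise (chi-square per degree of freedom at least 4.53).

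The members and the gene lists were chosen with earlier results of these data known. Of the lists, the text names genes called in a contrast. Up to 4 genes with the highest level per length or 3 with the largest fold change per list were also to be named. Only some of these are named, and none of the planar polarity list. Counts by direction are given for the ligand, receptor and target lists only. For each member the text names the 3 genes with the highest correlation among those of at least 10 CPM. Genes below all ungrafted libraries, in the order of LGR5 or past the adjusted p-value alone, and paralogs, were named after their values were seen. Alternatives were edgeR 4.0.16 (quasi-likelihood), DESeq2 1.42.0, DESeq2 size factors, other filters, no fold limit, quality weights, a replicate block, unmatched transcripts kept, only the groups compared, and leaving out each library. The fits were tested on simulated data.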

Additional observations from a re-analysis of the deposited data

How the results depend on the processing

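No fold change of the 6 genes that met the call limits changed sign under any alternative. The counts of Wnt pathway genes below include members of the 6, which were selected on these contrasts, so nothing is read from them. Between HH24g and HH27, 4 of the 6 pathway genes called were FZD10, APCDD1, LGR5 and DACT1. Those called were 7.89% of the 76 pathway genes, where 1.71% of all genes were called. Between HH27 and HH24 the pathway genes called included LGR5, and these shares were 3.95% and 1.07%. The number of genes called between HH24g and HH27 (155) became 98 with edgeR, 34 with at least 10 counts in every library and 288 without the fold limit, and 94 to 149 with 1 library left out. The Wnt pathway genes among them (6) became 1 with at least 10 counts in every library, 11 without the fold limit and 3 to 7 with 1 library left out. Between HH24g and HH24 the count (1) became 14 with edgeR, 120 with DESeq2, 20 with at least 10 counts in every library, 2 with quality weights, 3 with the replicate block, 0 without a filter, with unmatched transcripts kept or with only the groups compared (1368, 829 and 991 genes at an unadjusted p under 0.05, limma voom), and 0 to 20 with 1 library left out. The Wnt pathway genes among them (0) became 5 with DESeq2 and 0 to 2 with 1 library left out. Between HH27 and HH24 the count (97) became 212 with DESeq2, 42 with at least 10 counts in every library, 161 without the fold limit, 29 with unmatched transcripts kept and 21 to 93 with 1 library left out. The Wnt pathway genes among them (3) became 5 with DESeq2, 1 with at least 10 counts in every library, 5 without the fold limit, 1 with unmatched transcripts kept and 1 to 4 with 1 library left out. With at least 10 counts in every library 2635 genes were tested, and without a filter 13243 were. Leaving out a library leaves fewer samples. The cause of the changed counts was not tested. Same-numbered libraries of different groups did not deviate together (correlations of -0.029 to 0.04). The deviations were taken from group means, so those of the 2 HH24g libraries mirror each other. This check therefore cannot tell whether the numbers pair libraries. With the replicate number as a block, 163, 3 and 115 genes were called in the 3 contrasts, 6, 0 and 3 of them in the Wnt pathway. Fits with a single HH24g library assume that it varies like the other groups. Depth limits FZD10, DACT1, LGR5, AXIN2 and WNT5A in HH24 replicate 2, which held 2, 1, 7, 10 and 17 of their reads.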
